A study of Mus musculus with 15 samples.

Results

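Mitosis and cytokinesis genes are the genes whose products drive a cell from the end of G2 through chromosome segregation to the separation of the daughter cells. The set held 44 genes, chosen by name from the gene symbols of the deposited table, and all 44 were found among its 27174 genes. The choice was made with earlier results of these data known. They comprised 8 mitotic entry kinases and cyclins, 7 kinetochore and centromere genes, 6 spindle checkpoint and chromosomal passenger genes, 9 spindle motors and assembly factors, 8 chromosome structure genes and 6 central spindle and cytokinesis genes.

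RNA was sequenced from isolated brain microvessels of adult wild-type mice, BL6/57 in the labels, most of which carried a glioblastoma grown in the brain. Each of the 5 groups had 3 libraries, and each library was a pool of 3 mice. The sham group held healthy mice after a sham operation. The opposite hemisphere group held the tumour-free side of the brain of mice given control IgG, and the untreated tumour group held the tumour-bearing region of mice given control IgG. The dual therapy group held the tumour-bearing region of mice given Aflibercept-AMG386, in which Aflibercept is a soluble decoy receptor that binds VEGF and AMG386 is a peptide-Fc fusion that binds angiopoietins. The triple therapy group held the same region of mice given Aflibercept-AMG386 with an antibody to PD1, an inhibitory receptor of T cells. Microvessels were taken from tumour-bearing brains on day 21 after transplantation. The tumour line was not given in the sources used here. The comparisons ask how the cell division genes of the preparation differed with the tumour and after either treatment.

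Most endothelial cells of the adult brain are quiescent, and mitotic transcripts are scarce in resting tissue. In dividing cells these transcripts accumulate in G2 and mitosis, when the activators MYBL2 and FOXM1 act with the MuvB complex on promoters that the DREAM complex represses in resting cells. The shared promoter sequence is the cell cycle homology element, which lies close to the start of transcription and often downstream of CCAAT boxes bound by NF-Y. CDK1 with its B-type cyclins then starts mitosis, kinetochores attach chromosomes to the spindle, the checkpoint delays anaphase until all are attached, and the central spindle places the cleavage furrow.

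Promoter sequences were available in RefSeq (GRCm38.p6) for 37 of the 44 members, in 39 entries that each ran from 250 bases before to 50 bases after the annotated start. The windows below cover the 130 bases before the RefSeq start of 5 members with the shared element and of Ncaph, which had neither motif in this window, and were chosen after the matches had been seen. They are written 5′ to 3′ along the gene's own strand, with capitals marking the cell cycle homology element (TTTGAA or TTCGAA on either strand) and the CCAAT box (CCAAT on either strand).
Cdk1 (chr10:69352913-69353042, minus strand): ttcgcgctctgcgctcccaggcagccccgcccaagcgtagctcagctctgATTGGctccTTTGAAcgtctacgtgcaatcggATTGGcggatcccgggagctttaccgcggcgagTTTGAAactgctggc
Cdc20 (chr4:118437344-118437473, minus strand): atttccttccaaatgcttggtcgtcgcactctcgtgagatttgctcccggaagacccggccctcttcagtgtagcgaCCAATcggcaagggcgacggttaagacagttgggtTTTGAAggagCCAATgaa
Kif11 (chr19:37376252-37376381, plus strand): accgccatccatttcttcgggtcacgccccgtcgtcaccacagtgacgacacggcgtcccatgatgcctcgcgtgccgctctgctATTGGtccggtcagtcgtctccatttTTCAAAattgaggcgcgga
Mki67 (chr7:135716380-135716509, minus strand): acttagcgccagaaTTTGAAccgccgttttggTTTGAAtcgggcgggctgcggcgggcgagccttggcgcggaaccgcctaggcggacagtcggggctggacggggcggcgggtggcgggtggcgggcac
Top2a (chr11:99024190-99024319, minus strand): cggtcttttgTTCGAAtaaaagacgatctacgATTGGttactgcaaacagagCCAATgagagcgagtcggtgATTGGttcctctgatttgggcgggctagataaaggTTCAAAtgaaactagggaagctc
Ncaph (chr2:127133955-127134084, minus strand): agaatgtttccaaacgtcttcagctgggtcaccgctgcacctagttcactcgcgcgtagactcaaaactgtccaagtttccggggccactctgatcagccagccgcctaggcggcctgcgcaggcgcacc

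The cell cycle homology element was searched as TTTGAA or TTCGAA on both strands. It was present in 31 of the 39 member entries (79.5%) and in 19.2% of all 32851 promoter entries of the same length. CCAAT, searched on both strands, was present in 29 member entries (74.4%) and in 37.4% of all entries, and both motifs together in 26 member entries (66.7%) against 7.52% of all. An E2F site, searched as TTTCCCGC, TTTGGCGC, TTTCGCGC or TTTGCCGC on both strands, was present in 4 member entries (10.3%) and in 2.26% of all, while TATAAA was present in 1 (2.56%) against 13.6% of all. The 8 entries without the element were those of Nuf2, Nusap1, Ncaph, Cenpe, Melk, Birc5, Ccnb1 and Cenpi. Of the 44 matches to the element, 30 began between 40 bases before and 50 bases after the start, whereas 46 of the 62 CCAAT matches began more than 40 bases before it. Ect2 and Prc1 each had more than 1 entry, which overlapped, so the matches in these entries include repeats of the same sites. The matches are letter matches within a window around an annotated start, and no binding was measured.

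**Figure D1:**
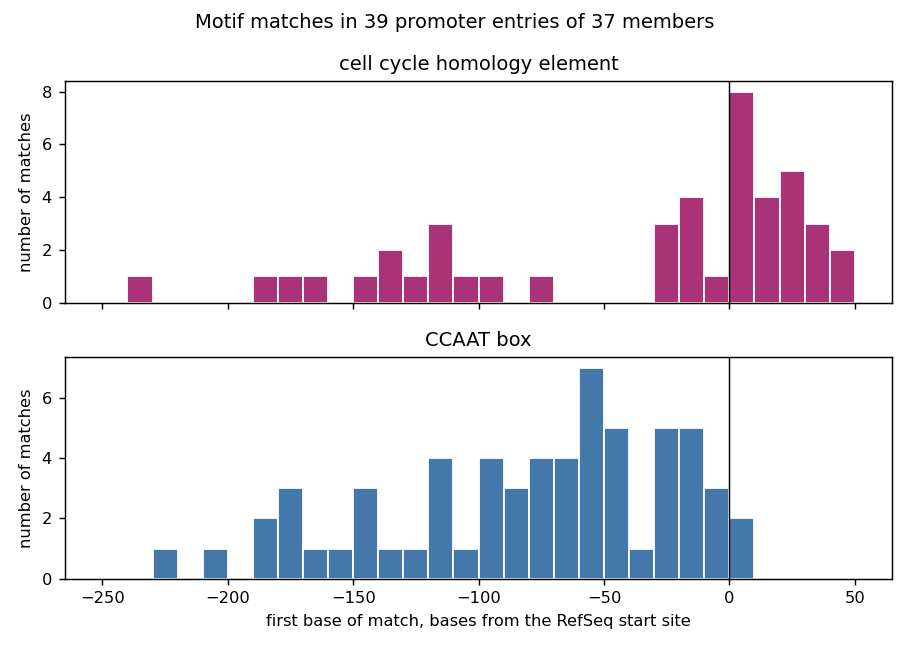
Number of motif matches (vertical axis) by the distance in bases of the first base of the match from the RefSeq start site (horizontal axis, in bins of 10 bases), for the 39 promoter entries of 37 members. Matches to the cell cycle homology element gather around the start (median first base at -1), and CCAAT matches lie mostly before it (median -67.5). The overlapping entries of Ect2 and Prc1 repeat the same sites.

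Values are deposited scores, that is, read counts per gene after the authors' scaling between libraries, rounded to whole numbers. Score sums ran from 11134670 to 15799111 a library, and depth estimated from the spacing of the scores from 6365348 to 18318084 reads. All 14 endothelial markers were above 0 in every group, and their summed score ran from 93040 to 134463 in untreated tumour and from 157076 to 184883 in the opposite hemisphere. That sum was 142132 to 174413 with dual and 127671 to 163169 with triple therapy. Untreated replicate 2 stood apart by its share of mitochondrial ribosomal RNA, 33.2% of the summed score against 22.4% and 21.5% in the other untreated libraries and 9.55% to 17.4% elsewhere. Tests were run with limma on log2(score + 1) over 19668 genes, and rose or fell is written of genes with a Benjamini-Hochberg adjusted p under 0.05 over all of these. All 44 members passed the filter for low values, and all 44 would have passed it on the libraries outside untreated tumour alone. In pooled tissue, fewer cells of a type and less RNA per cell cannot be told apart.

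All 44 members rose in untreated tumour against the opposite hemisphere, where 21.1% of all tested genes rose. Such shares are given for scale, since the set was chosen with earlier results of these data known. The median log2 difference of the members was 4.46 (range 1.36 for Smc4 to 6.76 for Bub1), beside 0.01 over all tested genes. Every untreated library lay above every opposite hemisphere library for all 44, against 25.3% of tested genes. After treatment 43 of 44 fell with dual therapy (10.2% of tested genes fell) and 44 of 44 with triple therapy (15% of tested genes fell), with medians of -2.50 and -2.37 on the log2 scale. All treated libraries of both therapies lay below all untreated libraries for all 44 members, against 15.8% of tested genes for dual and 22.5% for triple therapy. The dual and triple comparisons share the same 3 untreated libraries. Without untreated replicate 1, 40 members fell with each therapy, and the falls over all tested genes with dual therapy were 1144 in place of 2001.

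The members' combined score showed the same order in each library. It was 2386, 2558 and 2562 in sham, and 2676, 2113 and 2150 in the opposite hemisphere. Untreated tumour gave 36932, 19070 and 24869, dual therapy 6649, 4935 and 6005, and triple therapy 6005, 6488 and 5562. The treated libraries thus lay below every untreated library and above every library of the opposite hemisphere and sham.

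**Figure D2:**
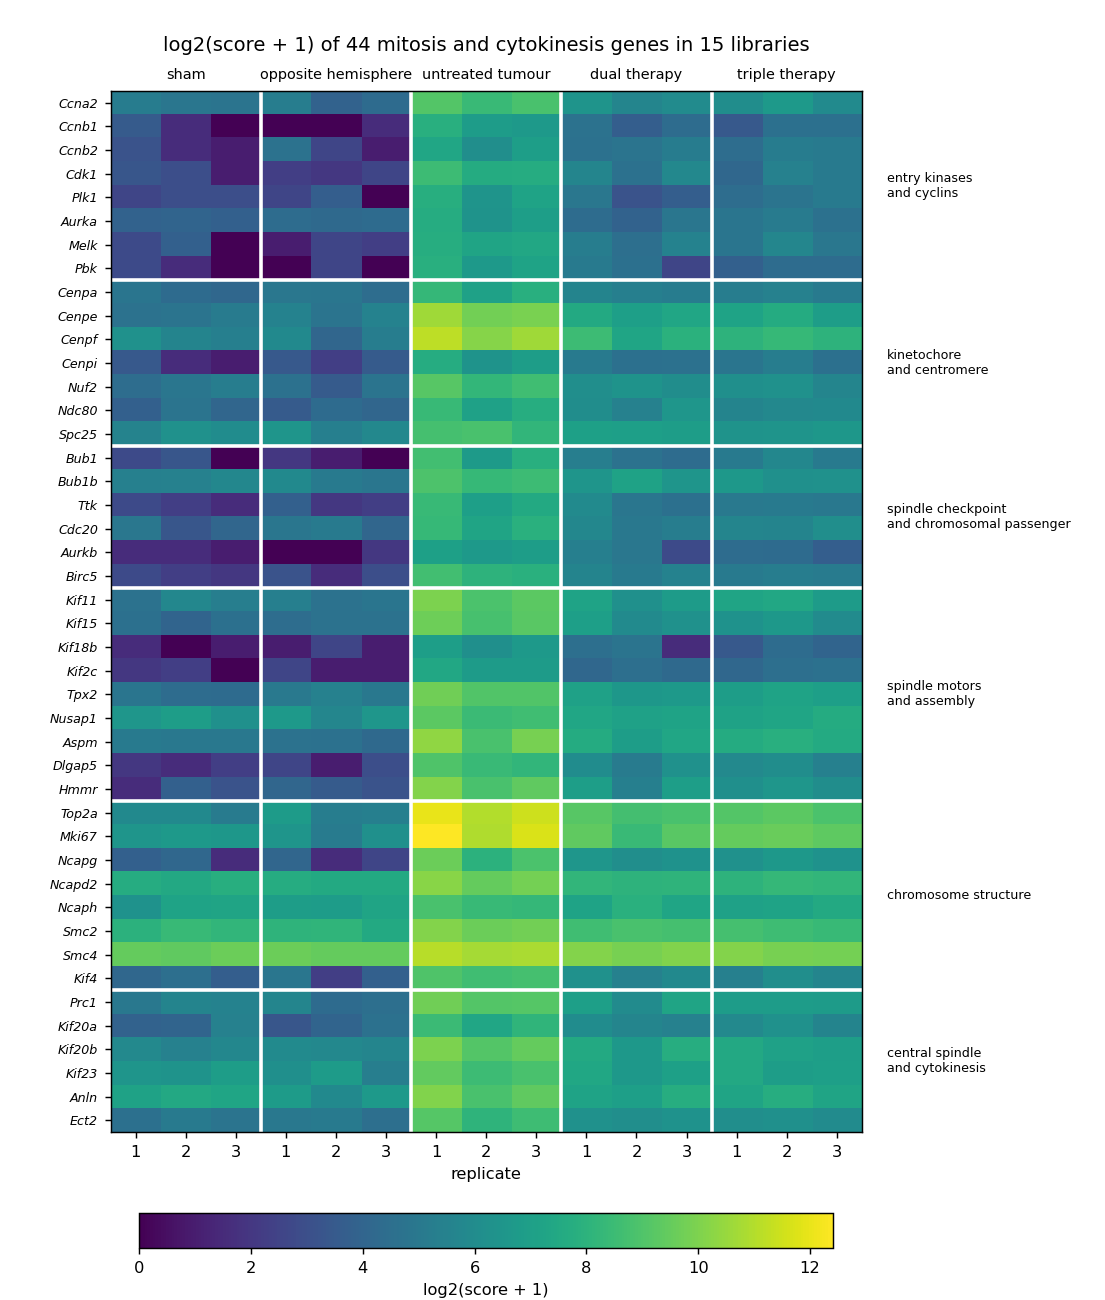
Level of each of the 44 members (rows, grouped by role) in each of the 15 libraries (columns, replicates 1 to 3 of each group), coloured by log2(score + 1). The 3 untreated tumour columns are the brightest in every row, the 6 treated columns are intermediate in most rows, and Smc4, Smc2 and Ncapd2 are bright in all groups.

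Among the mitotic entry genes, all 8 rose in untreated tumour, with a median log2 difference of 5.28. Cdk1, the kinase that starts mitosis, scored 364, 201 and 205 in untreated tumour against 4, 3 and 5 in the opposite hemisphere and 9, 7 and 1 in sham. It scored 49, 24 and 55 with dual and 17, 43 and 34 with triple therapy, so that both treated groups lay between the controls and untreated tumour without overlap. The log2 difference of Cdk1 was 5.65 ± 0.54 (SE) in untreated tumour (adjusted p = 2.67e-07), -2.59 ± 0.54 with dual therapy (adjusted p = 0.00251) and -3.03 ± 0.54 with triple therapy (adjusted p = 0.000359). Its partner Ccnb1, a B-type cyclin, scored 228, 114 and 103 in untreated tumour, while the opposite hemisphere libraries held 0, 0 and 2 and sham 11, 2 and 0. Ccnb1 scored 25, 12 and 20 with dual and 10, 23 and 23 with triple therapy, again below every untreated library and above every opposite hemisphere library. Its rise of 6.60 ± 0.73 rests on near-zero control values and was 4.69 with a pseudocount of 5.

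Ccna2, the cyclin of S and G2 phase, had the highest mean score of this group, with 539, 341 and 461 in untreated tumour, 38, 14 and 19 in the opposite hemisphere, 84, 50 and 63 with dual and 67, 106 and 61 with triple therapy. Plk1, a kinase of centrosome maturation and chromosome segregation, scored 221, 84 and 144 in untreated tumour and 5, 12 and 0 in the opposite hemisphere. With dual therapy Plk1 scored 29, 8 and 12, overlapping the opposite hemisphere, and with triple therapy 21, 26 and 32, above it. The fall of Plk1 with dual therapy, -3.20 ± 0.69, had the largest size of the 44. With triple therapy its fall (adjusted p = 0.0136) did not pass without untreated replicate 1 (adjusted p = 0.067) or triple replicate 1 (adjusted p = 0.0506). Aurka, the centrosomal Aurora kinase, scored 206, 81 and 122 in untreated tumour, 20, 18 and 19 in the opposite hemisphere, 20, 14 and 28 with dual and 27, 35 and 24 with triple therapy. Aurka was the member closest to its opposite hemisphere level after dual therapy, with a log2 difference of 0.07 ± 0.36 (adjusted p = 0.935).

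Pbk, a mitotic kinase, scored 228, 105 and 147 in untreated tumour, 0, 5 and 0 in the opposite hemisphere, 34, 23 and 5 with dual and 13, 20 and 20 with triple therapy. Dual replicate 3 of Pbk equalled the highest opposite hemisphere library. Ccnb2, a second B-type cyclin, was the member that did not pass the test with dual therapy: it scored 164, 69 and 124 in untreated tumour and 24, 26 and 36 with dual therapy, a log2 difference of -1.95 ± 0.71 (adjusted p = 0.0547), although no library overlapped. With triple therapy Ccnb2 scored 21, 36 and 32, a fall of -1.92 ± 0.71 (adjusted p = 0.0452). Opposite hemisphere replicate 1 gave 25 for Ccnb2, beside 5 and 1 in the others. Without untreated replicate 1 its triple therapy value was -1.64 (adjusted p = 0.15) and without triple replicate 1 it was -1.69 (adjusted p = 0.14). Nor was it called without triple replicate 2 or 3 (adjusted p = 0.068 and 0.0876). With quantile normalisation or without the mean-variance trend it was not called either (adjusted p = 0.0593 and 0.0853). The dual therapy value of Ccnb2 was called without opposite hemisphere replicate 1 (adjusted p = 0.0195).

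All 7 kinetochore and centromere genes rose in untreated tumour, with a median of 3.88, and all 7 fell with each therapy. Cenpf, a large kinetochore protein, scored 2326, 1157 and 1598 in untreated tumour, 58, 16 and 38 in the opposite hemisphere and 77, 47 and 40 in sham. It scored 365, 157 and 242 with dual and 259, 314 and 261 with triple therapy. Cenpe, the kinesin that carries chromosomes to the spindle equator, scored 1593, 873 and 983 in untreated tumour and 44, 26 and 44 in the opposite hemisphere. Cenpe then scored 187, 126 and 161 with dual and 148, 200 and 121 with triple therapy, and its log2 difference was 4.87 ± 0.27 in untreated tumour (adjusted p = 1.19e-09), -2.82 ± 0.27 with dual (adjusted p = 6.48e-06) and -2.85 ± 0.27 with triple therapy (adjusted p = 1.18e-06). Both genes kept treated levels above every control library.

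Cenpa, the histone H3 variant that marks centromeres, scored 311, 137 and 226 in untreated tumour, 29, 28 and 21 in the opposite hemisphere, 47, 40 and 36 with dual and 38, 43 and 33 with triple therapy. Its treated libraries lay above the opposite hemisphere libraries, but by 0.64 ± 0.31 with dual (adjusted p = 0.191) and 0.54 ± 0.31 with triple therapy (adjusted p = 0.452). Cenpi, a subunit of the constitutive centromere network, scored 208, 81 and 121 in untreated tumour, 10, 4 and 11 in the opposite hemisphere, 33, 23 and 24 with dual and 27, 37 and 23 with triple therapy. Spc25, a subunit of the Ndc80 complex that binds microtubules, scored 432, 460 and 287 in untreated tumour, 89, 40 and 54 in the opposite hemisphere, 131, 129 and 121 with dual and 81, 84 and 94 with triple therapy. It was the member whose triple therapy libraries all lay below its dual therapy libraries. The other subunits of that complex in the set, Nuf2 and Ndc80, rose by 4.35 ± 0.33 and 3.74 ± 0.36 in untreated tumour.

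All 6 checkpoint and chromosomal passenger genes rose in untreated tumour, with a median of 5.26, and all 6 fell with each therapy. Bub1, a checkpoint kinase of the kinetochore, scored 402, 109 and 229 in untreated tumour, 3, 1 and 0 in the opposite hemisphere, 39, 25 and 20 with dual and 33, 52 and 33 with triple therapy. Its rise of 6.76 ± 0.71 was the largest of the 44 and was 5.16 with a pseudocount of 5. Its fall with triple therapy, -2.46 ± 0.71 (adjusted p = 0.0132), was -2.01 without untreated replicate 1 (adjusted p = 0.0745). Bub1b, which encodes the checkpoint inhibitor BUBR1, scored 495, 319 and 363 in untreated tumour against 58, 32 and 28, with 87, 141 and 87 after dual and 96, 73 and 76 after triple therapy. Aurkb, the kinase of the passenger complex, scored 134, 103 and 120 in untreated tumour, 0, 0 and 3 in the opposite hemisphere and 2, 2 and 1 in sham.

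Aurkb libraries with dual therapy were uneven, at 40, 29 and 6, and those with triple therapy were 20, 19 and 12. The fall of Aurkb with dual therapy was -2.54 ± 0.65 (adjusted p = 0.00891), and without dual replicate 3 it was -1.77 (adjusted p = 0.0508). Birc5, or survivin, the passenger subunit that targets Aurora B, scored 400, 262 and 236 in untreated tumour, 8, 2 and 7 in the opposite hemisphere, 48, 32 and 45 with dual and 32, 37 and 35 with triple therapy. Cdc20, the activator of the anaphase-promoting complex that the checkpoint restrains, scored 320, 149 and 231 in untreated tumour, 28, 33 and 16 in the opposite hemisphere, 53, 30 and 38 with dual and 49, 48 and 70 with triple therapy. Dual therapy replicate 2 of Cdc20 fell within the opposite hemisphere range. Ttk, the kinase that starts checkpoint signalling, fell by 2.50 on the log2 scale with dual and fell by 2.61 with triple therapy.

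All 9 spindle motors and assembly factors rose in untreated tumour, with a median of 5.08, and all 9 fell with each therapy. Kif11, the motor that pushes the spindle poles apart, scored 1006, 474 and 619 in untreated tumour, 40, 25 and 27 in the opposite hemisphere, 147, 75 and 110 with dual and 152, 175 and 112 with triple therapy. Aspm, a spindle pole protein, scored 1325, 461 and 923 in untreated tumour, 25, 24 and 18 in the opposite hemisphere, 196, 121 and 161 with dual and 198, 228 and 192 with triple therapy. Every treated library of both genes lay above every control library and below every untreated one. Hmmr, a spindle assembly protein that also binds hyaluronan, scored 1124, 459 and 665 in untreated tumour, 16, 11 and 8 in the opposite hemisphere, 123, 40 and 122 with dual and 72, 92 and 66 with triple therapy. Hmmr had the largest fall with triple therapy, -3.19 ± 0.50 (adjusted p = 0.000125).

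Kif18b, a microtubule-depolymerising kinesin, was the member with the lowest mean in untreated tumour, with scores of 122, 72 and 102. It scored 1, 5 and 1 in the opposite hemisphere, 22, 26 and 2 with dual and 10, 20 and 15 with triple therapy. Dual replicate 3 of Kif18b lay within the opposite hemisphere range. Dlgap5, a kinetochore fibre protein, rose by 6.32 ± 0.46 in untreated tumour, and Nusap1, a microtubule-bundling protein, by 2.47 ± 0.26, the smallest rise of this group. The other 5 members, Kif11, Kif15, Kif2c, Tpx2 and Aspm, lay between 4.13 and 5.50.

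The chromosome structure genes held both the most abundant and the least changed members. All 8 rose in untreated tumour, with a median of 3.68, and all 8 fell with each therapy. Mki67, which encodes the proliferation marker Ki-67 that coats mitotic chromosomes (chr7:135689784-135716361, GRCm38, minus strand), scored 5465, 1933 and 3323 in untreated tumour, 88, 35 and 75 in the opposite hemisphere and 88, 102 and 94 in sham. It scored 671, 335 and 597 with dual and 703, 761 and 649 with triple therapy. Mki67 differed by 5.71 ± 0.33 in untreated tumour (adjusted p = 1.43e-09), -2.67 ± 0.33 with dual (adjusted p = 4.09e-05) and -2.22 ± 0.33 with triple therapy (adjusted p = 7.27e-05). Top2a, the topoisomerase that untangles sister chromatids (chr11:98992943-99024189, GRCm38, minus strand), scored 4153, 1999 and 2791 in untreated tumour, 110, 37 and 40 in the opposite hemisphere, 584, 412 and 454 with dual and 544, 634 and 480 with triple therapy. In both genes the treated groups formed a separate level between the controls and untreated tumour.

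Condensin compacts mitotic chromosomes, and its core subunits also act outside mitosis. Smc4 (chr3:69004738-69034623, GRCm38, plus strand), a core subunit, scored 2170, 1728 and 1827 in untreated tumour, 799, 708 and 713 in the opposite hemisphere and 709, 677 and 792 in sham. Smc4 scored 1097, 946 and 1086 with dual and 1090, 944 and 893 with triple therapy, so that its groups were ordered as for the other members within a narrower range. It rose by 1.36 ± 0.12 (adjusted p = 7.93e-08) and fell by 0.87 with dual (adjusted p = 7.65e-05) and by 0.97 with triple therapy (adjusted p = 9.01e-06). Its partner Smc2 scored 1124, 788 and 869 in untreated tumour, 267, 274 and 187 in the opposite hemisphere, 387, 454 and 428 with dual and 424, 379 and 334 with triple therapy. Ncaph, the subunit that closes the condensin I ring, scored 457, 329 and 310 in untreated tumour, 118, 115 and 149 in the opposite hemisphere, 148, 234 and 156 with dual and 136, 146 and 183 with triple therapy. The treated libraries of Ncaph overlapped the opposite hemisphere in both comparisons.

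The condensin subunits were not alike. Ncapg, also of condensin I, rose by 6.08 ± 0.61, whereas Ncapd2 rose by 2.24 ± 0.16 and Ncaph by 1.50 ± 0.24. The 4 subunits with small rises also had the highest levels per length in the opposite hemisphere, at a mean score per kilobase of exon of 142 for Smc4, 44.3 for Smc2, 30.6 for Ncapd2 and 29.6 for Ncaph, against a median of 3.67 over the 44. Kif4, a chromatin-bound kinesin, scored 513, 384 and 433 in untreated tumour, 28, 4 and 13 in the opposite hemisphere, 78, 43 and 59 with dual and 42, 70 and 49 with triple therapy.

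All 6 central spindle and cytokinesis genes rose in untreated tumour, with a median of 3.74, and all 6 fell with each therapy. Kif20b, a kinesin of late cytokinesis, scored 1004, 545 and 708 in untreated tumour, 61, 54 and 49 in the opposite hemisphere, 187, 97 and 212 with dual and 180, 139 and 124 with triple therapy. Anln, or anillin, the scaffold of the contractile ring, scored 1056, 465 and 660 in untreated tumour, 110, 58 and 101 in the opposite hemisphere and 142, 181 and 154 in sham. Anln scored 148, 127 and 213 with dual and 151, 209 and 150 with triple therapy, above the opposite hemisphere but overlapping sham. Kif23, the motor subunit of centralspindlin, scored 681, 368 and 465 in untreated tumour, 71, 112 and 39 in the opposite hemisphere, 166, 99 and 134 with dual and 177, 121 and 127 with triple therapy. Ect2, the exchange factor that activates RhoA at the furrow, rose by 3.75 ± 0.26, and Prc1, which bundles midzone microtubules, by 4.50 ± 0.34, the largest rise of this group.

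**Figure D3:**
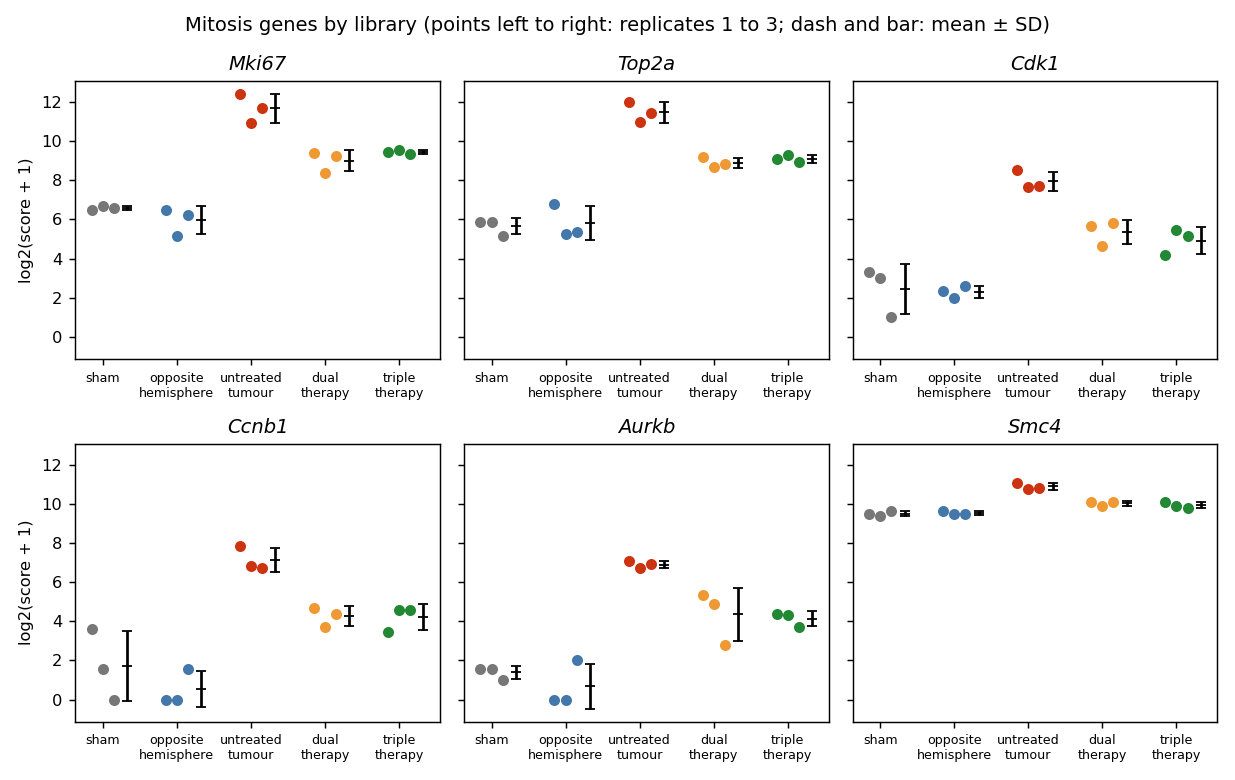
Level of 6 members in each library as log2(score + 1) on the vertical axis, by group on the horizontal axis, with 3 points a group (replicates 1 to 3) and the mean ± SD beside them. Untreated tumour is highest and both treated groups are intermediate in every panel; Smc4 has the narrowest range between groups, and the low controls of Ccnb1 and Aurkb include libraries at 0.

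The comparison of triple with dual therapy asked what the antibody to PD1 added. None of the 44 members rose or fell by limma (0.524% of tested genes rose and 0.346% fell), none had an unadjusted p under 0.05, and none was called by limma-voom. The counts over all tested genes moved with single libraries and with the scaling: the 103 rises and 68 falls became 0 and 0 without dual replicate 2, without triple replicate 1 or with endothelial scaling, and 254 and 149 without untreated replicate 2. No member was called in any of these fits. In 1 member, Spc25, every triple therapy library lay below every dual therapy library (9.4% of tested genes), and in none did every one lie above (9.27% of tested genes). The median difference of triple minus dual was 0.05 on the log2 scale, with a range from -0.55 for Spc25 to 0.83 for Plk1, and 22 members had a higher and 22 a lower mean score with triple therapy. All 44 intervals at 95% held 0. Of these, 20 lay within -1 and 1, while 24 reached past one of these limits, up to 2.28 for Plk1 and down to -1.58 for Ccnb1. The interval of Mki67 ran from -0.24 to 1.15 and that of Top2a from -0.49 to 0.88, so differences of either sign within these limits remained compatible with the data.

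Treated levels stayed above the opposite hemisphere for most members. With dual therapy 35 of 44 rose against the opposite hemisphere (6.91% of tested genes rose), with a median of 1.89, and with triple therapy 33 of 44 rose (4.15% of tested genes rose), with a median of 2.02. None fell in either comparison, where 5.89% and 0.824% of tested genes fell. With 1 library left out, the falls over all tested genes ranged from 614 (without opposite hemisphere replicate 3) to 1452 with dual and from 73 (without triple replicate 2) to 257 (without untreated replicate 2) with triple therapy. Every treated library lay above every opposite hemisphere library for 36 members with dual therapy (14.8% of tested genes) and 41 with triple therapy (12.9%). Aurka, Cenpa, Cenpi, Ccnb2, Cdc20, Kif18b, Ncaph and Kif23 did not pass the test after either therapy, Plk1 did not after dual therapy, and Spc25, Smc4 and Anln did not after triple therapy. Several of these calls lay near the threshold and do not separate the therapies. Without opposite hemisphere replicate 2, limma called Plk1 with dual therapy (adjusted p = 0.0171) but not Anln (adjusted p = 0.206). Without untreated replicate 1, it called Smc4 and Anln with triple therapy (adjusted p = 0.0317 and 0.0253). Plk1 with triple therapy was not called without opposite hemisphere replicate 3 (adjusted p = 0.158). On approximate reads with limma-voom the triple therapy count was 16 and the dual therapy count 28. As a share of the mean score in untreated tumour, the members kept a median of 17.3% with dual therapy (10.9% for Plk1 to 54.7% for Smc4) and 18.1% with triple therapy (10.2% for Hmmr to 51.1% for Smc4). As a share of the excess of untreated tumour over the opposite hemisphere, the median was 13.4% with dual and 13.5% with triple therapy, with ranges of 1.42% for Aurka to 26.4% for Smc2 and 6.04% for Cenpa to 22.6% for Nusap1.

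**Figure D4:**
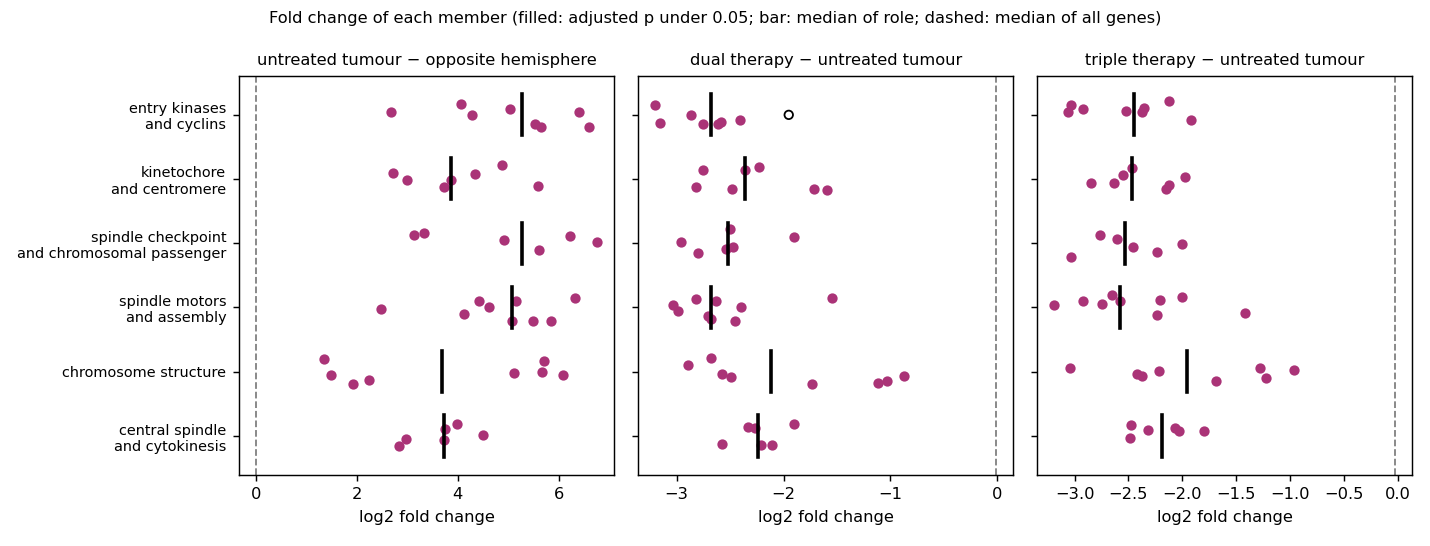
Log2 fold change of each member (points, by role on the vertical axis) in untreated tumour against the opposite hemisphere and in each therapy against untreated tumour, with a bar at the median of each role and a dashed line at the median of all tested genes; open points did not pass the test. All 44 points lie to the right of the dashed line in the first panel and to the left in the other panels, and Ccnb2 with dual therapy is the open point.

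No difference between the opposite hemisphere and sham passed the test in these genes. No member rose or fell by limma (0.254% of tested genes rose and 0.178% fell) or by limma-voom, and the median difference was -0.18 on the log2 scale. With 1 library left out, the rises over all tested genes ranged from 17 (without opposite hemisphere replicate 1) to 81 (without untreated replicate 2) and the falls from 5 (without opposite hemisphere replicate 1) to 109 (without dual replicate 3), and no member was called. The 2 groups did not overlap for 2 members that were higher (8.5% of tested genes) and 2 that were lower (12.5%) in the opposite hemisphere. At an unadjusted p under 0.05 there were 2 members, Tpx2, higher by 0.63, and Anln, which was lower (log2 difference -0.86), with adjusted p of 0.283 and 0.186. Control values were low: 14 members had a mean score under 10 in the opposite hemisphere, and counting noise is large at such levels.

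Levels per length put Smc4, Mki67 and Top2a at the top in untreated tumour, with mean scores per kilobase of 366, 355 and 331, against a median of 78.7 over the 44. The gain of untreated tumour over the opposite hemisphere, per kilobase, was largest for Mki67 at 349 and smallest for Cenpi at 22.6. Within untreated tumour, replicate 1 was the highest library for 43 of 44 members (the exception was Spc25) and replicate 2 the lowest for 39. The ratio of replicate 1 to replicate 2 ranged from 0.939 for Spc25 to 3.69 for Bub1, with a median of 1.92. Without untreated replicate 2 and dual replicate 2, a choice made after seeing the data, 44 members rose in untreated tumour, 42 fell with dual and 44 with triple therapy. The coefficient of variation between replicates had a median over members of 35% in untreated tumour, 28.3% with dual and 19.7% with triple therapy.

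The lists below hold genes of the same processes outside the set, and were also chosen with earlier results of these data known. In untreated tumour, their rises stand beside 21.1% of all tested genes that rose and their falls beside 21.4% that fell. After treatment, their rises stand beside 12.1% with dual and 17.2% with triple therapy, and their falls beside 10.2% and 15%. Of 29 other kinetochore and centromere genes, 24 rose and none fell in untreated tumour (median 2.92), and 21 fell with each therapy. Knl1, the kinetochore scaffold, had a mean of 934 ± 378 (SD, n = 3) in untreated tumour and 21.3 ± 7.8 in the opposite hemisphere, then 135 ± 30.3 with dual and 143 ± 31.6 with triple therapy. Incenp, the scaffold of the passenger complex, rose by 2.98 ± 0.18. Of 27 other spindle and cytokinesis genes, 23 rose and none fell (median 3.35), 22 fell with dual therapy and 21 with triple therapy, where Numa1, named after its value was seen, rose by 0.33. Racgap1, the partner of Kif23 in centralspindlin, had a mean of 349 ± 30.7 in untreated tumour, 33.7 ± 6.5 in the opposite hemisphere, 79.3 ± 12.7 with dual and 78 ± 28.5 with triple therapy. Cdc25c, the phosphatase that activates CDK1, was listed at 0 in all opposite hemisphere libraries and ranged from 82 to 156 in untreated tumour.

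Cohesin and the anaphase-promoting complex also work in non-dividing cells. Of 15 cohesin and anaphase genes, 7 rose and 2 fell in untreated tumour (median 0.19), the falls being a smaller share than over all tested genes. Espl1, the protease separase, rose by 4.60 ± 0.31, and Sgo2a, a protector of centromeric cohesion, by 3.96 ± 0.36. The falls of Pds5b, a regulator of cohesin, and Stag2, a cohesin subunit, did not pass the test with quantile normalisation or with endothelial scaling. Of these 15, 6 fell and 3 rose with dual and 7 fell and 2 rose with triple therapy. Of 18 subunits and cofactors of the anaphase-promoting complex, 6 rose (median 0.21), among them Ube2c, its ubiquitin-conjugating enzyme, with 40 to 95 in untreated tumour and 0 to 1 in the opposite hemisphere. With dual therapy 6 fell (median -0.29, beside 10.2% of tested genes) and with triple therapy 5 fell (median -0.23, beside 15%). The 6 rises in untreated tumour stand beside 21.1% of tested genes.

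Of 21 genes for transcription of the mitotic programme, 11 rose and 2 (Lin52 and Rbl2, named after their values were seen) fell in untreated tumour (median 0.68). Mybl2 had a mean score of 180 ± 44.1 (SD, n = 3) in untreated tumour, 3 ± 2.6 in the opposite hemisphere, 17 ± 5.3 with dual and 11.3 ± 7.5 with triple therapy. Foxm1 had 233 ± 79 in untreated tumour, 12 ± 5.3 in the opposite hemisphere, 37.7 ± 19.7 with dual and 35 ± 13.5 with triple therapy. Both fell with each therapy, Mybl2 by 3.34 and by 4.01 and Foxm1 by 2.72 and by 2.72 on the log2 scale. In all, 11 of the 21 fell with dual and 9 with triple therapy, and Rbl2 rose with triple therapy. Without untreated replicate 1, or without dual replicate 2, the dual therapy count was 6.

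Of 29 G1 and S phase genes, 27 rose and none fell in untreated tumour (median 1.74), 25 fell with dual and 26 with triple therapy, and Ccnd2, named after its value was seen, rose with each. Mcm5, a subunit of the replicative helicase, had a mean of 610 ± 122 in untreated tumour, 86 ± 15.7 in the opposite hemisphere, 180 ± 51.1 with dual and 174 ± 3.5 with triple therapy. Of 14 cell cycle inhibitors, 6 rose and 5 fell (median 0.08). Cdkn2a, which encodes an inhibitor of the G1 kinases and the p53 activator ARF, ranged from 88 to 237 in untreated tumour and from 0 to 4 in the opposite hemisphere. Cdkn1c, an inhibitor of G1 kinases found in resting cells, went the other way, falling by 1.35 in untreated tumour (adjusted p = 1.75e-05) and rising by 1.09 ± 0.19 with dual therapy against untreated tumour (adjusted p = 0.000646) and with triple therapy as well (adjusted p = 0.000646). With dual therapy 3 inhibitors fell and 2 rose, and with triple therapy 4 fell and 2 rose, and the rises were near the shares over all tested genes.

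Markers of other cell types also differed between the groups, in part with patterns other than that of the members. Their part in the member values was not tested. Of all tested genes, 21.1% rose and 21.4% fell in untreated tumour. Against untreated tumour, 12.1% rose and 10.2% fell with dual therapy, and 17.2% rose and 15% fell with triple therapy. Of 16 T and NK cell markers, 15 rose in untreated tumour, and their summed score was 1494 to 1749 there against 98 to 212 in the opposite hemisphere. It was 938 to 1437 with dual and 649 to 1331 with triple therapy, below every untreated library. The median log2 difference of the 16 markers from untreated tumour was -0.20 with dual and -0.12 with triple therapy. No marker fell with dual and 3 (Gzma, Gzmb and Ncr1) fell with triple therapy, the latter near the share over all tested genes. Cd3e, a T cell receptor subunit, had a mean of 114 ± 14.2 in untreated tumour, 117 ± 24.9 with dual and 128 ± 39.4 with triple therapy.

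Of 12 glial progenitor markers, 5 rose and 4 fell in untreated tumour, and the summed score was 10512 to 12223 against 12842 to 13984 in the opposite hemisphere, 13530 to 17851 with dual and 15287 to 17454 with triple therapy. The 5 that rose were the transcription factors Nkx2-2, Olig1, Olig2, Sox10 and Sox2; all 5 fell with dual therapy and all but Sox2 with triple therapy. The 4 that fell in untreated tumour were Cspg5, Egfr, Pdgfra and Prom1; after treatment Egfr, Pdgfra and Prom1 rose with dual therapy and all 4 rose with triple therapy. Olig2 ranged from 368 to 931 in untreated tumour, 51 to 55 in the opposite hemisphere, 110 to 168 with dual and 89 to 159 with triple therapy. Pdgfra, also a fibroblast marker, went the other way, from 1637 to 2863 in the opposite hemisphere to 667 to 1034 in untreated tumour.

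Of 13 microglia and macrophage markers, 11 rose and 1 (Mrc1) fell in untreated tumour, with sums of 6314 to 7628 against 4305 to 4616. These sums were 4633 to 7689 with dual and 7061 to 7823 with triple therapy. In each, 2 markers fell and Mrc1 rose, counts near or below the shares over all tested genes. Of 10 pericyte markers 9 fell in untreated tumour (21.4% of tested genes fell), 7 rose with dual and 9 rose with triple therapy, with sums of 23984 to 28726 against 53751 to 68667, and sums of 46888 to 58445 with dual and 52262 to 68806 with triple therapy. B cell markers summed to 106 to 180 in untreated tumour against 36 to 53, and fibroblast markers to 6537 to 8155 against 6799 to 9369. Of 14 endothelial markers, 4 fell (21.4% of tested genes) and 1 rose (21.1%) in untreated tumour. With dual therapy 4 rose (12.1%), and with triple therapy 3 rose (17.2%) and 2 fell (15%). No marker was at 0 in every library of any group. With libraries scaled on the endothelial markers, the median of all tested genes in untreated tumour against the opposite hemisphere moved from 0.01 to 0.29 and the share of calls that were rises from 49.6% to 72.5%. In dual therapy against untreated tumour the median of all tested genes moved from -0.0069 to -0.23 and the share of calls that were rises from 54.3% to 22.5%, with 2639 in place of 2001 falls, and in triple therapy the median moved from -0.02 to -0.13 and the share from 53.5% to 43.2%. Under that scaling the members' median was 4.75 in untreated tumour, where all 44 rose, -2.72 with dual and -2.49 with triple therapy, where all 44 fell.

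**Figure D5:**
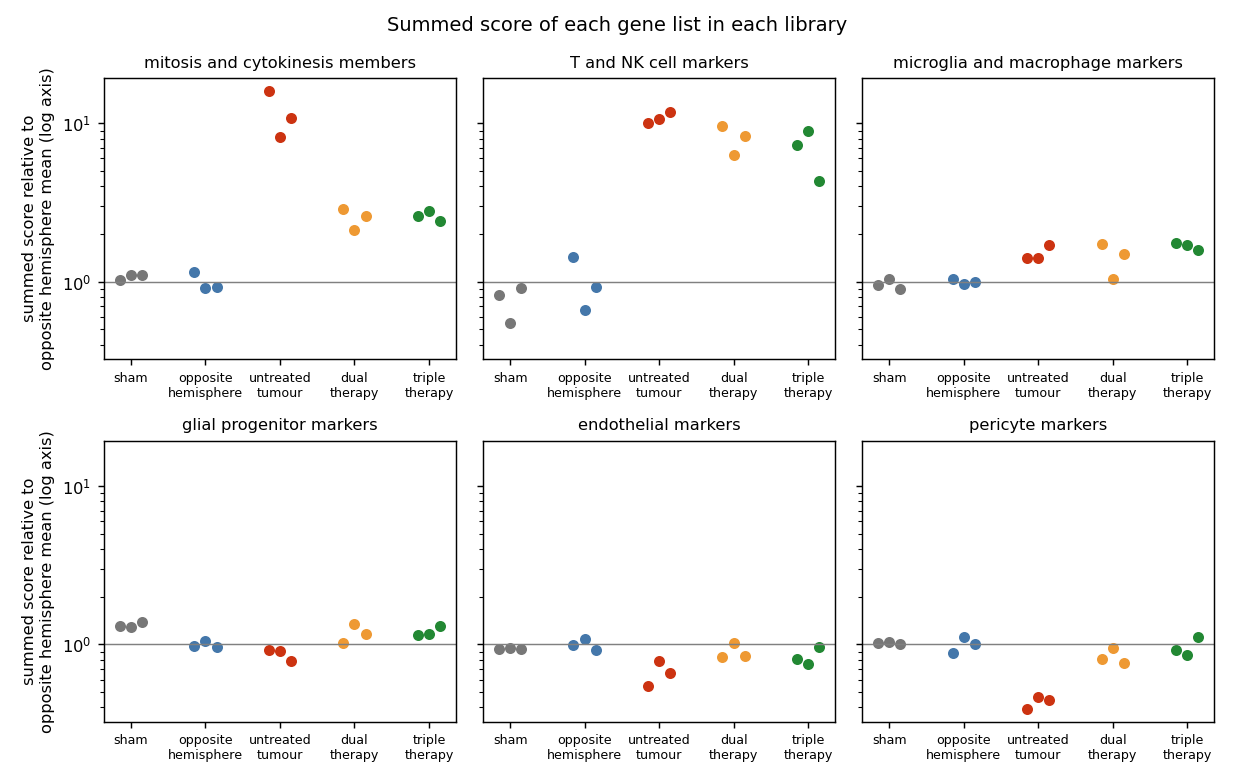
Summed score of the members and of 5 marker lists in each library, divided by the mean of the opposite hemisphere libraries (vertical log axis), by group (horizontal axis, 3 points a group). The member sum is high in untreated tumour and intermediate after both therapies, the T and NK cell sum is high in all 3 tumour groups, and the pericyte sum is low in untreated tumour.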

How the data were processed

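RNA of brain microvessels was prepared with a micro column kit and DNase digestion, and 100 ng of total RNA a library went into the SMARTer Stranded Total RNA kit, per the labels' protocols. Per the submitters' processing notes, STAR 2.4.0a, featureCounts 1.4.5-p1 and DESeq2 were used with GRCm38 (mm10); whether counting used strand was not given in the sources used here. The deposited table holds the authors' normalised values as whole numbers, treated here as a score: they are not raw counts, since they follow steps of 0.656 to 1.861 a read that differ between libraries. A step near 1 cannot be told from a smaller fraction of it, so depths estimated from the steps are approximate. Because scores are not counts, no count model was the main test.

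The 19668 genes that reached a score of 10 in 3 or more of the 15 libraries (7506 did not and were not tested) were fitted with limma 3.58.1 (R 4.3.3) on log2(score + 1), with 1 mean a group, a mean-variance trend, 10 residual and 8.26 prior degrees of freedom, and Benjamini-Hochberg adjustment over all tested genes in each of 7 comparisons. A fold change on this scale understates the change of low genes. The labels call the libraries biological replicates, each a pool of 3 mice. The limma fit was tested on simulated data with known changes. Scores were divided by the exon length of GENCODE M21 for levels per kilobase. Of the 44 members, 41 have the same coordinates there as in the table, and 8 (Ccna2, Cdc20, Kif20a, Kif4, Ncapg, Nusap1, Plk1 and Prc1) share exonic bases with a gene on the opposite strand, so their reads cannot be told apart if strand was not used. Ncapd2 shares 237 exonic bases with Scarna10 on the same strand, where strand does not separate their reads. Replicate numbers are shared by the groups with no stated pairing and were not used in the fit.

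The members and all gene lists were chosen with earlier results of these data known. Values in every library are given for the 2 members of each role with the highest mean, the 3 with the largest and smallest changes, members whose call differed from most, and 6 preset ones (Mki67, Top2a, Cdk1, Ccnb1, Aurkb and Plk1); of other lists, up to 4 called genes with the smallest adjusted p, and others are named after their values were seen. Alternatives covered the pseudocount, filters, scaling, libraries, trend, weights, limma-voom, a replicate block and each library left out.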

Additional observations from a re-analysis of the deposited data

How the results depend on the processing

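The rise of all 44 members in untreated tumour held under every alternative run, and the falls covered 40 to 44 members with each therapy under every alternative run, with 40 in both without untreated replicate 1. Leaving out 1 library gave 31 to 38 rises of dual therapy and 24 to 35 of triple therapy over the opposite hemisphere, and the latter were 16 with limma-voom on approximate reads; the cause was not tested. Same-numbered libraries did not deviate together (30 pairs, correlations of -0.13 to 0.103, median 0.0116). Most of these pairs join groups treated differently, so they cannot show whether the same mice gave both libraries. The same-numbered pairs of opposite hemisphere and untreated tumour had correlations of -0.0553, 0.0208 and 0.0695, too few to decide. Whether the same mice gave an opposite hemisphere and an untreated tumour library of one number was not given in the sources used here. With the replicate block 44 members rose in untreated tumour, 44 fell with dual and 44 with triple therapy, 37 and 34 stayed above the opposite hemisphere, and Ccnb2 passed with dual therapy (adjusted p = 0.0435). The sign of Aurka in dual therapy against the opposite hemisphere was not fixed, at -0.10 with quantile normalisation and from -0.17 (without dual replicate 3) to 0.30 with 1 library left out. Cd3e in dual therapy against untreated tumour was -0.21 with endothelial scaling, -0.0079 with quality weights, and ran from -0.094 (without untreated replicate 2) to 0.20 with 1 library left out; in triple therapy it ran from -0.077 (without triple replicate 1) to 0.38. Of the anaphase-promoting complex genes 12 rose in untreated tumour with endothelial scaling, and 3 fell with dual therapy with quality weights or without untreated replicate 2 and dual replicate 2 (3 to 6 with 1 library left out). Of the genes for transcription of the mitotic programme 7 fell with dual therapy in a fit of 6 libraries and 7 without both of those libraries (6 to 11 with 1 left out). Of the inhibitors 5 fell with dual therapy with a pseudocount of 5 and with endothelial scaling, 1 with no filter, with quantile normalisation and in a fit of 6 libraries, and 0 to 4 with 1 library left out. The cause of these shifts was not tested. Scores near 0 in the controls limit the size of the rises: with a pseudocount of 5 the members' median rise was 4.07 in place of 4.46.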
